A study of Mus musculus with 6 samples.

Results

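The genes described here are 10 mouse glutathione S-transferases: 7 cytosolic enzymes (Gsta4 of the alpha class, Gstm1, Gstm2 and Gstm5 of the mu class, Gstp1 of the pi class, Gstt1 of the theta class and Gsto1 of the omega class) and the 3 microsomal enzymes Mgst1, Mgst2 and Mgst3. They were taken by symbol from a gene table of 22355 rows, in which each had 1 row. All 10 exceeded the minimum mean level of 1 TPM over the libraries, where TPM is a gene's read share corrected for transcript length, with an equal total for each library, and so belong to the 13341 genes tested. Messenger RNA was sequenced in bulk from mouse embryonic fibroblasts (MEFs), which are embryo-derived stromal cells in culture. One group of 3 libraries came from MEFs transfected with an siRNA against Hk2 (siHk2), which encodes hexokinase 2, the enzyme that phosphorylates glucose at the entry to glycolysis. Its comparison group of 3 libraries came from MEFs transfected with a negative control siRNA (siControl). The sources used here give no mouse strain, passage, number of siRNA sequences or time after transfection. The series title speaks of ischemia-reperfusion in normal or steatotic livers, but the samples analysed are cultured MEFs without such a treatment in their labels. Nothing in the labels says that replicate libraries were separate cultures, and the p-values therefore measure only the spread between these libraries, which may be technical.

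Glutathione transferases join the thiol of glutathione to electrophilic compounds, such as drugs and products of lipid peroxidation, and the conjugates are then exported and processed to mercapturic acids. The cytosolic enzymes are soluble dimers grouped into classes by sequence, whereas the microsomal enzymes are integral membrane proteins of a separate family, MAPEG (membrane-associated proteins in eicosanoid and glutathione metabolism). Several members also reduce lipid hydroperoxides, and some members of MAPEG make eicosanoids. Many genes of both families can be induced by the transcription factor encoded by Nfe2l2 through antioxidant response elements.

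Hk2 itself had 22.4, 21.4 and 21.8 TPM in siHk2 libraries 1, 2 and 3, against 57.1, 62.5 and 58.9 TPM in siControl libraries 4, 5 and 6 (numbers as in the table's columns). Its mean fell by 63.3% (log2 fold change -1.40, limma adjusted p = 0.000222). Of the fibroblast markers, Vim averaged 1969 TPM in siHk2 cells and 2365 TPM in siControl cells (limma adjusted p = 0.0110), Col1a2 averaged 593 TPM in siHk2 cells and 533 TPM in siControl cells, and Dcn, Thy1 and Lum were under 1 TPM in every library. Since TPM keeps no read numbers, sequencing depth is unknown and no counting error can be given. In bulk RNA, fewer cells of a kind and less RNA per cell cannot be told apart.

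The 3 microsomal genes and Gstt1 were higher in siHk2 cells, no member was lower, and the other 6 members did not pass the test. Mgst1 had the largest difference of the 10, with a mean 61.7% above that of siControl cells. Mgst2, Mgst3 and Gstt1 differed by less, with means 26.3%, 27.8% and 26.5% above those of siControl cells. Thus 4 of 10 members were called, against 1810 of 13341 genes tested (13.6%) in either direction, 6.15% higher and 7.42% lower in siHk2 cells. The test was limma's moderated test on log2(TPM + 1) with a threshold of 0.05 on the Benjamini-Hochberg adjusted p over all tested genes. The median log2 fold change was 0.22 over the 10 members, 0.35 over the 3 microsomal genes, 0.10 over the 7 cytosolic genes and 0.01 over all tested genes. The fold change was above 0 for 8 of 10 members. Libraries of the 2 groups did not overlap, with siHk2 higher, for 5 members, against 17.6% of all tested genes, and no member had the opposite order, which 18.1% of all tested genes had.

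**Figure D1:**
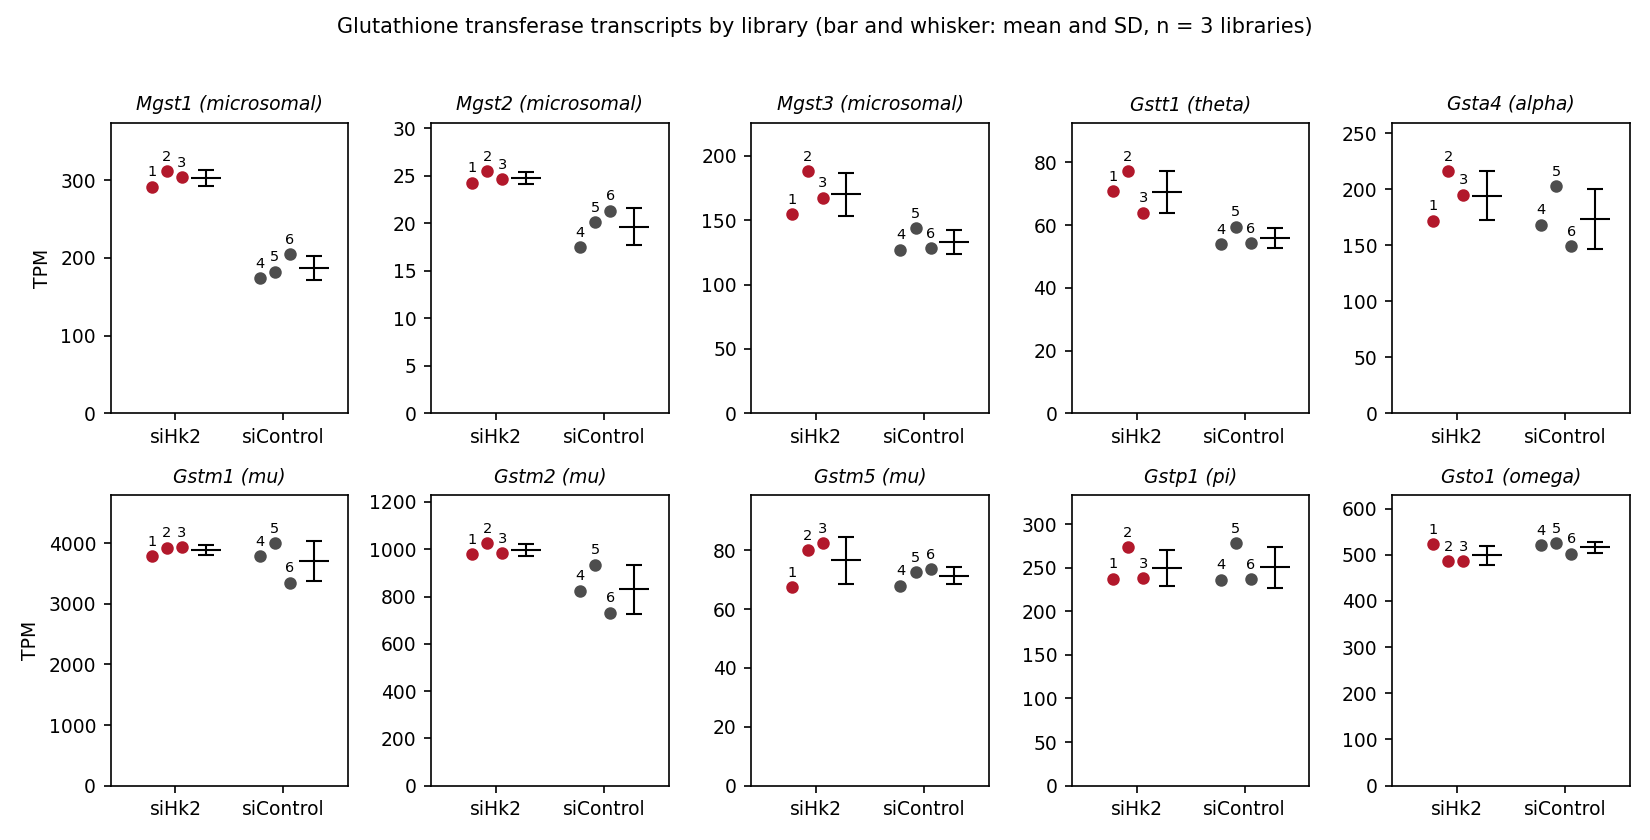
TPM of each glutathione transferase (vertical axes, linear from 0, separate for each gene) in the 3 siHk2 and 3 siControl libraries (points, numbered as in the table), with the mean and SD of each group (bar and whisker). The siHk2 points lie above the siControl points without overlap for Mgst1, Mgst2, Mgst3, Gstt1 and Gstm2, and they overlap for the other members.

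Mgst1 (ENSMUSG00000008540, GRCm39 chr6:138117314-138133753, plus strand) encodes an enzyme of the endoplasmic reticulum and outer mitochondrial membrane with transferase and lipid hydroperoxide peroxidase activity. It had 291, 312 and 303 TPM in siHk2 libraries 1, 2 and 3, against 174, 182 and 205 TPM in siControl libraries 4, 5 and 6. All siHk2 libraries stood well above all siControl libraries, and the highest siControl library was 6. The means were 302 ± 10.2 TPM in siHk2 cells and 187 ± 15.9 TPM in siControl cells (SD, n = 3 each), a log2 fold change of 0.69 (SE 0.06, 95% interval 0.54 to 0.84, limma adjusted p = 0.00222). The call was kept under each of the 15 alternative settings, with fold changes between 0.64 and 0.76. Mgst1 exceeded Gstp1 in each siHk2 library, where Gstp1 had 237, 273 and 238 TPM, and lay below Gstp1 in each siControl library, where Gstp1 had 236, 278 and 237 TPM. That order depends on the Gstp1 level, which shared sequence makes uncertain.

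Mgst3 (ENSMUSG00000026688, GRCm39 chr1:167199535-167221410, minus strand) encodes a microsomal enzyme with glutathione-dependent peroxidase activity toward lipid hydroperoxides. It had 155, 188 and 167 TPM in siHk2 libraries 1, 2 and 3, against 127, 144 and 128 TPM in siControl libraries 4, 5 and 6. The groups did not overlap, but siHk2 library 1 lay closer to siControl library 5 than to siHk2 library 2. The means were 170 ± 16.9 TPM in siHk2 cells and 133 ± 9.36 TPM in siControl cells (SD, n = 3 each), a log2 fold change of 0.35 (SE 0.08, 95% interval 0.16 to 0.54, limma adjusted p = 0.0321). Its call was lost when siHk2 library 2 (adjusted p = 0.0867), siHk2 library 3 (0.10), siControl library 4 (0.114) or siControl library 6 (0.0600) was left out of the limma fit.

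Mgst2 (ENSMUSG00000074604, GRCm39 chr3:51567781-51590098, plus strand) encodes an endoplasmic reticulum enzyme that can also conjugate glutathione to a leukotriene precursor. It was the least abundant of the 10 members, with 24.3, 25.5 and 24.6 TPM in siHk2 libraries 1, 2 and 3, against 17.5, 20.1 and 21.3 TPM in siControl libraries 4, 5 and 6. The siHk2 libraries lay close together, and the siControl libraries spread more widely below them. The means were 24.8 ± 0.631 TPM in siHk2 cells and 19.6 ± 1.96 TPM in siControl cells (SD, n = 3 each), a log2 fold change of 0.33 (SE 0.08, 95% interval 0.14 to 0.52, limma adjusted p = 0.0388). Leaving out siHk2 library 1, 2 or 3 or siControl library 4 or 5 each ended the call, with limma adjusted p of 0.0897, 0.121, 0.117, 0.0991 and 0.0586 in that order.

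Gstt1 (ENSMUSG00000001663, GRCm39 chr10:75619647-75634418, minus strand) encodes a theta class enzyme, whose active site uses a serine and which handles small halogenated compounds and organic hydroperoxides. It had 70.8, 77.3 and 63.9 TPM in siHk2 libraries 1, 2 and 3, against 53.9, 59.5 and 54.3 TPM in siControl libraries 4, 5 and 6. The lowest siHk2 library, 3, was above the highest siControl library, 5. The means were 70.7 ± 6.67 TPM in siHk2 cells and 55.9 ± 3.14 TPM in siControl cells (SD, n = 3 each), a log2 fold change of 0.33 (SE 0.08, 95% interval 0.15 to 0.51, limma adjusted p = 0.0327). Without siHk2 library 1 or 2, or without siControl library 4 or 6, the limma adjusted p was 0.0917, 0.0976, 0.115 and 0.0606 in that order, above the threshold. With no filter on low values or with no mean-variance trend, Mgst2, Mgst3 and Gstt1 also lost their calls (limma adjusted p between 0.0642 and 0.0758).

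The promoter windows of these 4 called genes are shown because the genes moved in the same direction. Each is 300 bases, from 250 before to 50 after the start of transcription, from RefSeq on GRCm38.p6, an older build than that of the expression table, and is written 5′ to 3′ along the gene's strand. Capitals mark the core of the antioxidant response element, TGACNNNGC or, on the opposite strand, GCNNNGTCA.

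Mgst1, chr6:138140277-138140576, plus strand: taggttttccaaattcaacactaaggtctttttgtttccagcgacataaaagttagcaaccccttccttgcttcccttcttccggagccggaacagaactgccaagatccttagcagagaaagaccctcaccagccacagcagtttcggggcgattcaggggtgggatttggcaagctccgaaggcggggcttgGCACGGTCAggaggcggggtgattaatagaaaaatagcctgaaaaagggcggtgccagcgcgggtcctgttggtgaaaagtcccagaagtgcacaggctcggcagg

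Mgst2, chr3:51660929-51661228, plus strand: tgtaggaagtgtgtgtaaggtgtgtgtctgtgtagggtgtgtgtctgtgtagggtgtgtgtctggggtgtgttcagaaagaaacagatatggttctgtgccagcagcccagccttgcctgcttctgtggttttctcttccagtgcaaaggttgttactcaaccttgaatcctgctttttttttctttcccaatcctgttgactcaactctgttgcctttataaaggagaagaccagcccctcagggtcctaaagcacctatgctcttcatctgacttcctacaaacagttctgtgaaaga

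Mgst3, chr1:167393792-167394091, minus strand: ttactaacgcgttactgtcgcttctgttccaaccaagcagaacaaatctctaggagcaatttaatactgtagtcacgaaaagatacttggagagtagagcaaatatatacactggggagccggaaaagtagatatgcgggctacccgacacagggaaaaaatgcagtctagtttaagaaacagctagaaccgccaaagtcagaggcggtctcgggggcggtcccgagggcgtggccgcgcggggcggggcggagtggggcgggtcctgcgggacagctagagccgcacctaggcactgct

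Gstt1, chr10:75797682-75797981, minus strand: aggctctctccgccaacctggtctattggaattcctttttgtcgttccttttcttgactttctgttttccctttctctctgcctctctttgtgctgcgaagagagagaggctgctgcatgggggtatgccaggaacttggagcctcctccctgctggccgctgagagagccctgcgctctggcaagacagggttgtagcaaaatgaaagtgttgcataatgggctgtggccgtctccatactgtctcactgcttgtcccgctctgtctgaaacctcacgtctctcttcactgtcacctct

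Of these 4 windows, that of Mgst1 held the motif, as GCACGGTCA at positions -56 to -48 relative to the start; a second Mgst1 start, with its own window, had none. RefSeq windows were matched for 9 of 10 members by symbol. Gsta4 had no entry. Gstm5, which was not called, was the other member with the motif, TGACCACGC at positions -42 to -34 (GRCm38.p6 chr3:107895604-107895903, plus strand). Over all RefSeq windows of this length, 4071 of 32851 (12.4%) held it. That share counts windows, whereas 2 of 9 counts genes, and the 9 members had 11 windows. So 2 of 9 members is a description and no test was made. A match in letters is not a binding site, and the absence of these letters from a window says nothing about the factor.

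The mu class genes carried most of the glutathione transferase RNA. Gstm1 (ENSMUSG00000058135, GRCm39 chr3:107919571-107925289, minus strand), a broadly active conjugating enzyme, ranked 15 of 13341 tested genes by mean TPM. It had 3787, 3930 and 3939 TPM in siHk2 libraries 1, 2 and 3, against 3789, 3996 and 3349 TPM in siControl libraries 4, 5 and 6. The highest and the lowest of the 6 libraries were both siControl libraries, 5 and 6. Its means were 3885 ± 85.3 TPM in siHk2 cells and 3711 ± 330.2 TPM in siControl cells (SD, n = 3 each), with a log2 fold change of 0.07 (95% interval -0.09 to 0.23, limma adjusted p = 0.550).

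Gstm2 (ENSMUSG00000040562, GRCm39 chr3:107889018-107893769, minus strand), a close relative of Gstm1, ranked 108 by mean TPM. It had 980 TPM in siHk2 library 1, 1024 in library 2 and 983 in library 3, against 824, 935 and 732 TPM in siControl libraries 4, 5 and 6. The groups did not overlap, although the siControl libraries spread more than the siHk2 libraries. The means were 996 ± 25.1 TPM in siHk2 cells and 830.2 ± 102 TPM in siControl cells (SD, n = 3 each), a log2 fold change of 0.27 (95% interval 0.07 to 0.47). Gstm2 missed the threshold, with a limma adjusted p of 0.0753. It passed when siControl library 5 was left out (0.0174) or with library weights (0.0114), which limma estimated from these same values.

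Gstm1 and Gstm2 have similar coding sequences. Their longest identical stretch is 60 bases, from base 193 to 252 of both coding sequences, and is shown in capitals with 10 bases on each side (GENCODE M21 transcripts, GRCm38, chromosome 3, minus strand).

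Gstm1 coding bases 183 to 262: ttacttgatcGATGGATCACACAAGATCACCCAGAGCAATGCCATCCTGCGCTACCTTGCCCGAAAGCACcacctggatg

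Gstm2 coding bases 183 to 262: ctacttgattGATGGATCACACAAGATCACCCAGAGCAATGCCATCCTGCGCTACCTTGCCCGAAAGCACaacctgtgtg

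Over 654 coding bases the 2 genes were 85.9% identical. In the M21 transcripts, 23.2% of the 50-base windows of Gstm1 and 9.36% of those of Gstm2 also occurred in another gene. Most of these lie in genes other than the pair itself: the gene sharing most with Gstm1 is Gstm2-ps1 (17.3% of windows), followed by Gstm3 and Gm8834, and the gene sharing most with Gstm2 is Gm12499 (5.52%). For Gstp1 the share was 62.3%, with its neighbour Gstp2 and a related pseudogene, and Gstp2 had between 0 and 1.46 TPM. The other 7 members had no such window. The sources used here do not say how the authors' counting split shared reads, so levels of Gstm1, Gstm2 and Gstp1 are uncertain to that extent.

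The third mu class member, Gstm5 (ENSMUSG00000004032, GRCm39 chr3:107803137-107806002, plus strand), is known in mouse chiefly from brain and testis. It had 67.5, 80.0 and 82.3 TPM in siHk2 libraries 1, 2 and 3, against 68.0, 72.5 and 73.5 TPM in siControl libraries 4, 5 and 6. The lowest library was siHk2 library 1 and the other 2 siHk2 libraries were the highest, so the groups overlapped (log2 fold change 0.10, 95% interval -0.09 to 0.28, limma adjusted p = 0.461). Gstm5 overlaps the gene 4933431E20Rik on the opposite strand, which averaged 10.6 TPM, and the sources used here do not say whether strand was used in counting.

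Gsta4 (ENSMUSG00000032348, GRCm39 chr9:78090056-78116631, plus strand) encodes the alpha class enzyme with high activity toward hydroxyalkenals from lipid peroxidation. It had 172, 216 and 195 TPM in siHk2 libraries 1, 2 and 3, against 168, 203 and 149 TPM in siControl libraries 4, 5 and 6. The groups overlapped, with the second highest value in siControl library 5. The log2 fold change was 0.17 (95% interval -0.12 to 0.46, limma adjusted p = 0.398).

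Gstp1 (ENSMUSG00000060803, GRCm39 chr19:4085407-4087985, minus strand), the pi class enzyme that also binds the stress kinase JNK, averaged 249.5 ± 20.6 TPM in siHk2 cells and 250.4 ± 23.7 TPM in siControl cells (SD, n = 3 each). Within each group 1 library was high, 2 in siHk2 cells and 5 in siControl cells, and the others nearly coincided across groups. The log2 fold change was -0.0039 (95% interval -0.20 to 0.19, limma adjusted p = 0.980).

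Gsto1 (ENSMUSG00000025068, GRCm39 chr19:47843409-47853229, plus strand) encodes the omega class enzyme, which has a cysteine in its active site and acts as a thioltransferase and dehydroascorbate reductase. It had 523, 487 and 486 TPM in siHk2 libraries 1, 2 and 3, against 521, 524 and 502 TPM in siControl libraries 4, 5 and 6. The groups overlapped through siHk2 library 1, and the log2 fold change was -0.05 (95% interval -0.16 to 0.05, limma adjusted p = 0.499). Gsto1 overlaps Cfap43 on the opposite strand, which averaged 0.387 TPM.

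**Figure D2:**
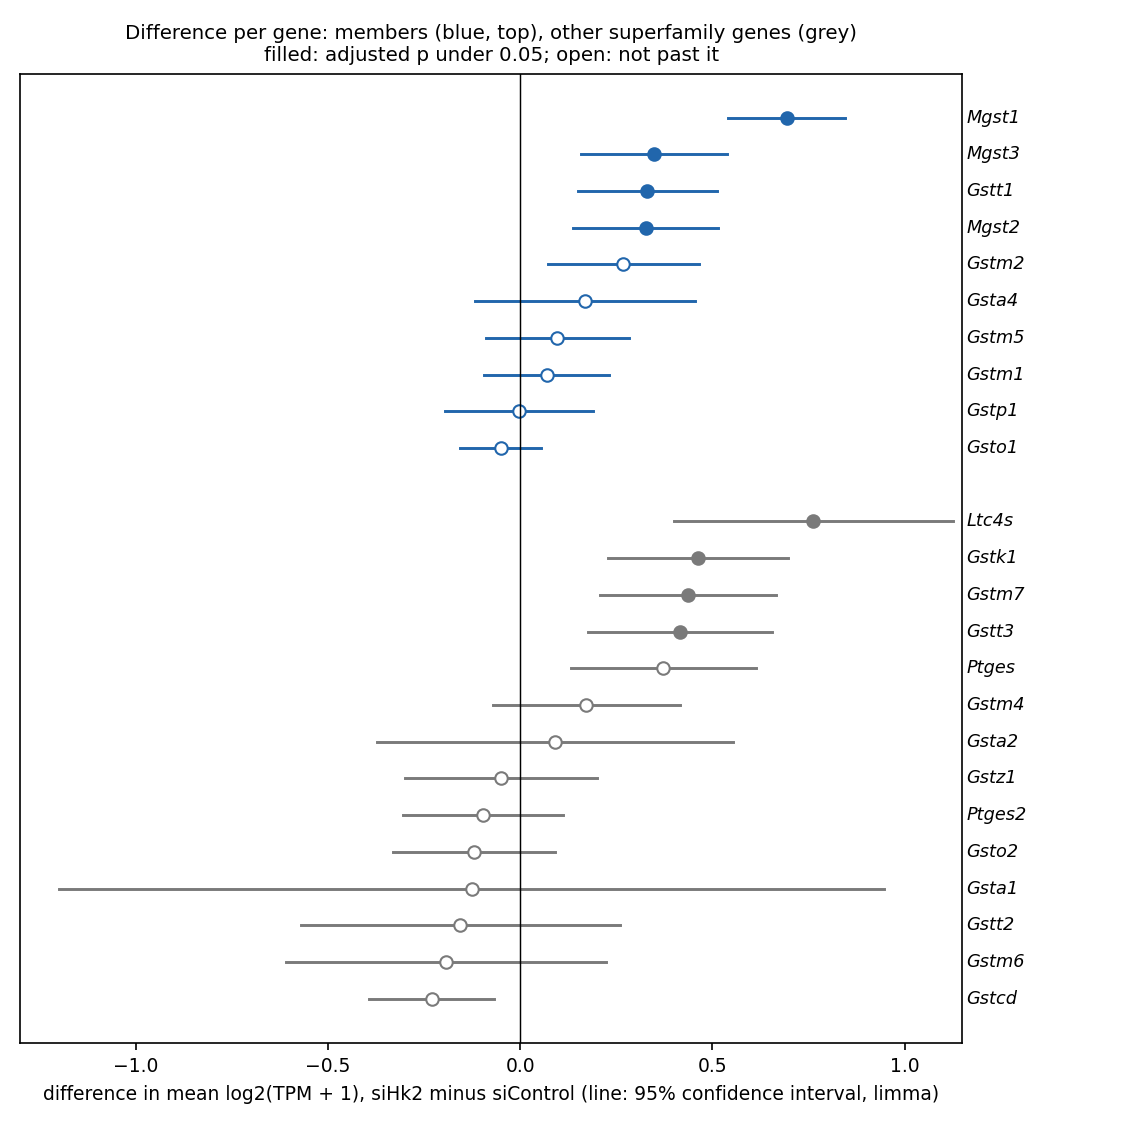
Log2 fold change on log2(TPM + 1), siHk2 minus siControl, with its 95% interval, for the 10 members and for 14 further superfamily genes that could be tested. Filled points passed an adjusted p of 0.05, and the called genes all lie to the right of 0, with Ltc4s and Mgst1 farthest out at 0.76 and 0.69.

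The order of levels was Gstm1, Gstm2 and Gsto1 in every library. TPM is per transcript length, but the places of Gstm1, Gstm2 and Gstp1 depend on how the reads they share with other genes were counted. Below these 3 genes, Mgst1 came before Gstp1 in siHk2 cells and after it in siControl cells. Gsta4 and Mgst3 overlapped in siHk2 cells, with 172 to 216 TPM for Gsta4 and 155 to 188 TPM for Mgst3, and did not overlap in siControl cells, with 149 to 203 TPM and 127 to 144 TPM. Gstm5 and Gstt1 likewise overlapped in siHk2 cells and not in siControl cells, and Mgst2 was the lowest in every library.

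Summed over the 10 genes, the libraries had 6307, 6613 and 6482 TPM in siHk2 cells, against 5979, 6414 and 5451 TPM in siControl cells. These sums overlapped, since siControl library 5 exceeded siHk2 library 1. Gstm1 alone made up 59.4% to 60.8% of the sum in siHk2 libraries and 61.4% to 63.4% in siControl libraries. The 3 microsomal genes together had 471, 526 and 496 TPM in siHk2 cells, against 319, 346 and 354 TPM in siControl cells. Their share of the sum was 7.46% to 7.95% in siHk2 libraries and 5.33% to 6.50% in siControl libraries, without overlap.

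**Figure D3:**
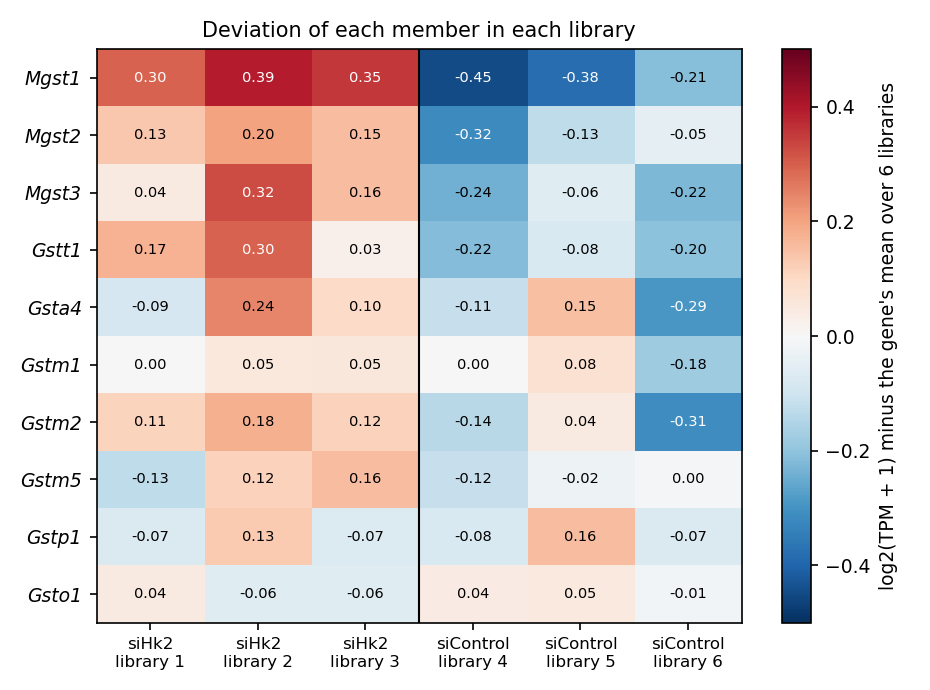
Deviation of each library's log2(TPM + 1) from the gene's mean over the 6 libraries, for the 10 members (rows), with siHk2 libraries left of siControl libraries. Mgst1 is above its mean in all siHk2 libraries and below it in all siControl libraries, and several members are higher in siHk2 library 2 and siControl library 5 than in the other libraries of the same group.

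Certain libraries were often the highest of their group. Within siHk2 cells, library 2 had the highest value for 7 of 10 members, against 38.8% of all tested genes. Within siControl cells, library 5 was highest for 7 of 10 members, against 39.5% of all tested genes. Both held for 5 members (Gstt1, Mgst3, Gsta4, Gstm2 and Gstp1), against 21.7% of all tested genes. Without these 2 libraries together, a setting chosen after the data were seen, Mgst1 and Mgst3 were called and Gstt1 and Mgst2 were not (limma adjusted p = 0.0651 and 0.141). No label ties these 2 libraries to a batch, and the part of such a split in the results was not tested.

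Other genes of the superfamily were measured in the same table. Of 23 further genes listed, 21 were in the table and 14 were tested. Of these, 4 were called higher and 0 lower, against 6.15% higher and 7.42% lower of all tested genes. The median log2 fold change was 0.02, with 7 of the 14 above 0. With limma, 6 of the 14 had an unadjusted p under 0.05, against 30.7% of all tested genes. The 4 calls depended on the settings: 0 were called higher with no filter on low values or without siHk2 library 1 or 2, and 1 with no mean-variance trend, without siHk2 library 3 or without siControl library 4. With no filter the limma adjusted p was 0.0537 for Ltc4s, 0.0604 for Gstk1, 0.0680 for Gstm7 and 0.0808 for Gstt3, and with no trend it was 0.0528 for Ltc4s, 0.0677 for Gstm7 and 0.0704 for Gstt3.

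Ltc4s, a MAPEG enzyme that makes a cysteinyl leukotriene, had 40.8, 41.3 and 33.6 TPM in siHk2 libraries 1, 2 and 3, against 27.2, 17.5 and 23.0 TPM in siControl libraries 4, 5 and 6. Its log2 fold change was 0.76 (SE 0.16, limma adjusted p = 0.0214), and the call was lost without siHk2 library 1 (0.0706) or 2 (0.0774). Gstk1, the kappa class enzyme of mitochondria and peroxisomes, had 16.4, 18.5 and 15.3 TPM in siHk2 libraries 1, 2 and 3, against 12.0, 13.0 and 10.6 TPM in siControl libraries 4, 5 and 6. The groups of neither gene overlapped. The log2 fold change of Gstk1 was 0.46 (limma adjusted p = 0.0259), and leaving out siHk2 library 1, 2 or 3 or siControl library 4 ended the call (0.0696, 0.0860, 0.0598 and 0.0828 in that order).

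Gstm7, a mu class neighbour of Gstm5, had 185, 191 and 173 TPM in siHk2 libraries 1, 2 and 3, against 137, 154 and 116 TPM in siControl libraries 4, 5 and 6. Its log2 fold change was 0.44 (limma adjusted p = 0.0294), lost without siHk2 library 1 (0.0852), 2 (0.10) or 3 (0.0738) or siControl library 4 (0.0876). Gstt3, the theta class neighbour of Gstt1, had 28.3, 32.7 and 29.4 TPM in siHk2 libraries 1, 2 and 3, against 19.4, 25.2 and 22.7 TPM in siControl libraries 4, 5 and 6. Neither gene had overlapping groups. The log2 fold change of Gstt3 was 0.42 (limma adjusted p = 0.0378), lost without siHk2 library 1 (0.0707), 2 (0.121) or 3 (0.108) or siControl library 4 (0.0999) or 6 (0.0593).

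The other 10 tested superfamily genes did not pass. Ptges, the inducible MAPEG prostaglandin E synthase, averaged 89.8 TPM in siHk2 cells and 69.5 TPM in siControl cells (log2 fold change 0.37, limma adjusted p = 0.0530) with groups that did not overlap, and it passed without siControl library 6 (0.0384), with library weights (0.0211) and with a minimum of 5 TPM (0.0442). Gstcd, which carries a transferase-like C-terminal domain, averaged 14.7 TPM in siHk2 cells and 17.4 TPM in siControl cells, also without overlap (log2 fold change -0.23, limma adjusted p = 0.0695; 0.0149 with library weights). The adjusted p was 0.308 or more for Gstm4, Gstm6, Gsta1, Gsta2, Gsto2, Gstt2, Gstz1 (maleylacetoacetate isomerase) and Ptges2. Gsta3, Gsta5, Gstm3, Gstp2, Gstt4, Hpgds and Alox5ap were under the minimum mean, and Gsta13 and Gstp3 were not analysed here.

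Several members lie in clusters of related genes. In GRCm39 order along chromosome 3, the mu class genes are Gstm5, Gstm7, Gstm6, Gstm3, Gstm2, Gstm1 and Gstm4, with log2 fold changes of 0.10, 0.44, -0.19, not tested, 0.27, 0.07 and 0.17. Of these Gstm7 was called. On chromosome 10, Gstt3 ends 2398 bases before Gstt1, and both were called, whereas Gstt2, farther along, had a log2 fold change of -0.16 (limma adjusted p = 0.603). The coding sequences of Gstt1 and Gstt3 were 76.2% identical, and 3.20% of the 50-base windows of Gstt3 occur in other genes, nearly all of them in Gm20441.

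**Figure D4:**
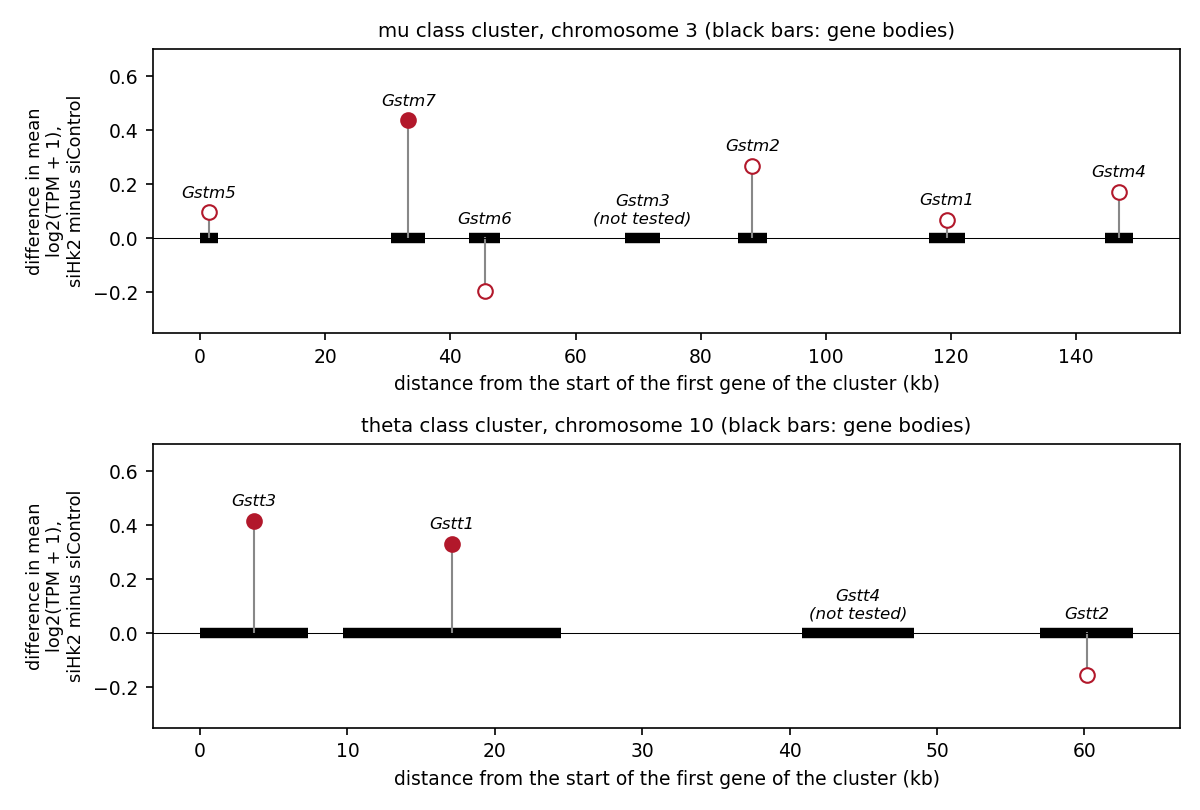
Log2 fold change, siHk2 minus siControl (vertical axis), of the mu class genes on chromosome 3 and the theta class genes on chromosome 10, by distance in kilobases from the start of the first gene of each cluster. Filled points are called genes: Gstm7 at 0.44, Gstt3 at 0.42 and Gstt1 at 0.33.

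Genes that supply glutathione were measured beside the enzymes that use it. Of 18 genes of glutathione synthesis and turnover listed, 14 were tested, and 2 were called higher and 0 lower (6.15% and 7.42% of all tested genes). The median log2 fold change was -0.01, with 6 of the 14 above 0. With limma, 6 of the 14 had an unadjusted p under 0.05 (30.7% of all tested genes). Groups did not overlap for 4 of the 14 with siHk2 higher and for 0 with siHk2 lower (17.6% and 18.1% of all tested genes). Oplah, which turns oxoproline from glutathione breakdown back to glutamate, had 29.1, 32.4 and 30.6 TPM in siHk2 libraries 1, 2 and 3, against 19.3, 22.5 and 19.5 TPM in siControl libraries 4, 5 and 6. Its groups stood clearly apart, and its call (log2 fold change 0.57, limma adjusted p = 0.00644) was kept under each of the 15 alternative settings. Cth, which makes cysteine, averaged 210.1 ± 4.68 TPM in siHk2 cells and 182 ± 9.39 TPM in siControl cells (SD, n = 3 each). Its log2 fold change was 0.21 (limma adjusted p = 0.0326), and its call was lost without siHk2 library 1 (0.0993), 2 (0.111) or 3 (0.0901) or siControl library 4 (0.0967). Fitting without a filter on low values (0.0560) or without a mean-variance trend (0.0806) also ended it. The most abundant gene of the list, Slc3a2, the shared heavy chain of amino acid transporters, averaged 309 TPM in siHk2 cells and 368 TPM in siControl cells and did not pass (log2 fold change -0.24, limma adjusted p = 0.122). It passed without siControl library 6 (0.0250) or with library weights (0.0242). Chosen after their values were seen, the subunits of the rate-limiting ligase also did not pass. Gclc averaged 118 TPM in siHk2 cells and 126 TPM in siControl cells, and Gclm averaged 82.0 TPM in siHk2 cells and 87.3 TPM in siControl cells. Ggt5 and Slc7a11, likewise chosen after their values were seen, were higher in siHk2 cells without overlap. Ggt5 averaged 7.44 TPM in siHk2 cells and 3.50 TPM in siControl cells, and Slc7a11 averaged 22.4 TPM in siHk2 cells and 19.1 TPM in siControl cells. Neither passed (limma adjusted p = 0.0654 and 0.0668), but both were called higher with library weights.

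Of 17 genes of conjugate export and mercapturate formation, 12 were tested, and 1 was called higher and 0 lower (6.15% and 7.42% of all tested genes). The median log2 fold change was -0.06. The called gene was Dpep1, a membrane dipeptidase that splits the cysteinylglycine part of conjugates. It had 132, 133 and 119 TPM in siHk2 libraries 1, 2 and 3, against 86.5, 96.5 and 80.2 TPM in siControl libraries 4, 5 and 6. The groups did not overlap, and the call (log2 fold change 0.54, limma adjusted p = 0.00683) was kept under each of the 15 alternative settings. Abcc1, the main export pump for glutathione conjugates, chosen after its values were seen, averaged 39.9 TPM in siHk2 cells and 44.7 TPM in siControl cells. Its siHk2 libraries all lay below its siControl libraries, but it did not pass (limma adjusted p = 0.0862, and 0.0142 with library weights).

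Among 32 other detoxification enzymes, 28 were tested, and 1 was called higher and 0 lower (6.15% and 7.42% of all tested genes). The median log2 fold change was 0.04. Groups did not overlap for 4 of the 28 with siHk2 higher and for 3 with siHk2 lower (17.6% and 18.1% of all tested genes). Aldh1a1, a retinaldehyde dehydrogenase, was the called gene, with 13.6 TPM on average in siHk2 cells and 9.69 TPM in siControl cells (log2 fold change 0.45, limma adjusted p = 0.0301). Its call was lost without any 1 of the siHk2 libraries 1 (0.0570), 2 (0.0914) and 3 (0.113) or siControl library 4 (0.0992) or 5 (0.0584), and with no filter on low values (0.0731). Ephx1, microsomal epoxide hydrolase and the most abundant of the list, averaged 745 TPM in siHk2 cells and 786 TPM in siControl cells, without overlap (limma adjusted p = 0.234). Hmox1, chosen after its values were seen, averaged 234 TPM in siHk2 cells and 324.5 TPM in siControl cells, also without overlap. It did not pass (log2 fold change -0.48, limma adjusted p = 0.0602). Hmox1 was called lower with a minimum of 5 TPM, with library weights, and without siHk2 library 2 and siControl library 5 together. Nqo1, also chosen after its values were seen, averaged higher, with 474 TPM in siHk2 cells and 426 TPM in siControl cells. Its groups overlapped and it did not pass (limma adjusted p = 0.212). Among the 13 regulators of this gene battery listed, 11 were tested and 0 were called in either direction by limma (13.6% of all tested genes). Of the 11, 2 had an unadjusted p under 0.05 with limma (30.7% of all tested genes). The median log2 fold change was -0.00088. Sqstm1, an adaptor that binds Keap1 and the most abundant of them, averaged 1904 TPM in siHk2 cells and 1907 TPM in siControl cells. Nfe2l2 and Keap1, chosen after their values were seen, averaged 103 and 53.8 TPM in siHk2 cells and 111 and 59.6 TPM in siControl cells (limma adjusted p = 0.158 and 0.0837). These were the 2 regulators with every siHk2 library below every siControl library, and 3 had the opposite order. Over all tested genes the shares were 18.1% and 17.6%. With library weights Keap1 was called lower (limma adjusted p = 0.0155).

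**Figure D5:**
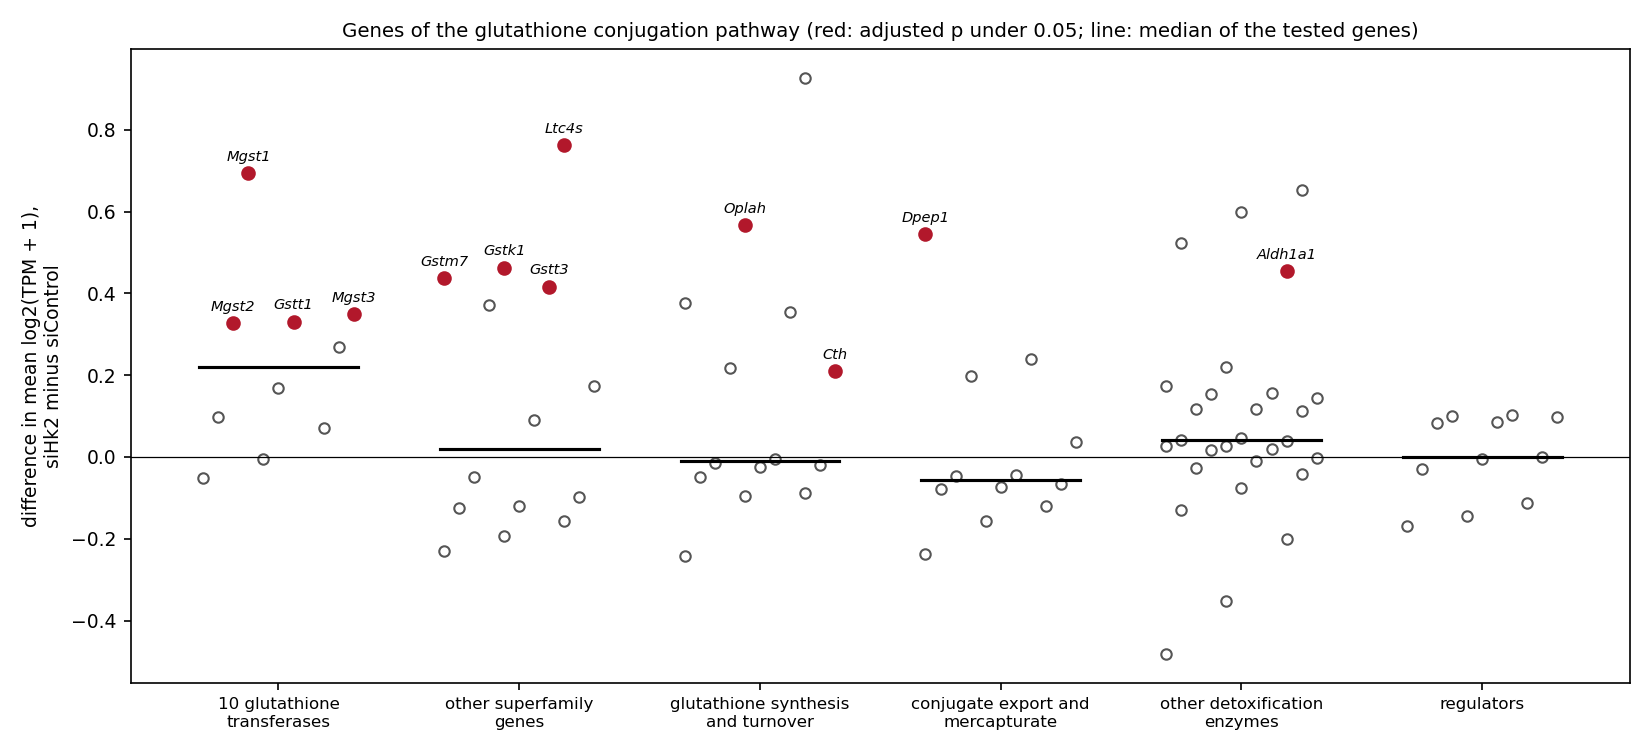
Log2 fold change, siHk2 minus siControl (vertical axis), of each tested gene of the 10 members and of 5 related gene lists, with called genes filled and the median of each list as a line. The median of the 10 members is 0.22, and the medians of the other lists lie between -0.06 and 0.04.

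By the root mean square distance between centred log2(TPM + 1) values over the 6 libraries, the genes ranked most like Mgst1 were S100b (distance 0.0526), Fabp5 (0.0676) and Angpt1 (0.0694). The ranking left out the members, genes with Gm, Rik or Ensembl names, and symbols that do not start with a capital. Sums of some marker lists of other cells differed too. Summed adipocyte markers had 1361 to 1419 TPM in siHk2 libraries and 873 to 899 TPM in siControl libraries. Of these, Lpl, Cidec and Pparg were called higher, and Adipoq, Plin1 and Cebpa were under 1 TPM in every library. Lpl was the largest part of this sum, with means of 894 TPM in siHk2 cells and 501 TPM in siControl cells. Fabp4 averaged 331 TPM in siHk2 cells and 259 TPM in siControl cells, with overlapping groups, and was not called (limma adjusted p = 0.219). Summed glial and neuronal markers had 137 to 150 TPM in siHk2 libraries and 90.6 to 95.6 TPM in siControl libraries, with S100b called higher and Sox10 under 1 TPM in every library. Nearly all of this sum was S100b, with means of 143 TPM in siHk2 cells and 90.2 TPM in siControl cells. Epithelial markers summed to 6.52 to 9.36 TPM in siHk2 libraries and 2.75 to 4.20 TPM in siControl libraries, with Epcam and Cdh1 under 1 TPM. Most of the siHk2 sum was Krt7, the 1 gene of this list that was tested. It was called higher, with means of 5.31 TPM in siHk2 cells and 1.55 TPM in siControl cells. Among the untested genes Krt8 averaged higher in siHk2 cells (1.39 against 0.167 TPM), and Krt19 (0.333 against 0.893 TPM) and Alb (0.207 against 0.540 TPM) lower. The sums of the fibroblast, macrophage and blood, muscle and endothelial lists overlapped between the groups. The part of these marker genes in the results on glutathione transferases was not tested.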

How the data were processed

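The authors deposited TPM values with 2 decimals in 1 table with a column per library. RNA was extracted with Trizol and enriched for polyadenylated messages, per the labels' protocols. The build was GRCm39, per the submitters' processing notes; the sources used here name no aligner, counting tool or annotation. The siControl columns are numbered 4 to 6, whereas the titles number the siHk2 and the siControl samples 1 to 3 each; these columns served as control replicates without an identity of their own. No per-sample column was left out. Because TPM keeps no depth, the depth per library is unknown and precision is given by the spread between 3 libraries a group.

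The 13341 genes with an average of 1 TPM or more were tested with limma 3.58.1 in R 4.3.3 on log2(TPM + 1), with a mean-variance trend, two-sided, without covariates, and with Benjamini-Hochberg adjustment over these genes at 0.05. Fold changes on this scale understate the change of low genes. An exact permutation test of 3 against 3 libraries cannot go below 0.1 and was not used. Alternatives were pseudocounts of 0.1 and 0.5, no filter, a minimum of 5 TPM, no trend, library weights, other scalings and leaving out libraries.

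The members, the gene lists and the tests were chosen with earlier results of these data known. Named genes were the 10 members, each tested superfamily gene, up to 4 called genes and the most abundant gene of every other list, and Hk2. The 3 genes nearest to Mgst1 in pattern, after the exclusions given above, were also named. Others are said to be chosen after their values were seen, and marker genes come from fixed lists. Promoters are RefSeq windows on GRCm38.p6, searched on both strands. Coding sequences and 50-base windows come from GENCODE M21 on GRCm38; no coordinate was converted between builds.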

Additional observations from a re-analysis of the deposited data

How the results depend on the processing

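With 3 libraries a group and unknown depth, small differences rest on single libraries. Of the 10 members, 4 were called; 1 was called with no filter on low values or with no mean-variance trend, 2 without siHk2 library 2 and siControl library 5 together (a setting chosen after seeing the data), and between 1 and 4 when 1 library was left out: 1 without siHk2 library 2 or siControl library 4, and 2 without siHk2 library 1, siHk2 library 3 or siControl library 6. Library weights gave 5. Over all genes, 1810 of 13341 were called, against 1186 of 22355 with no filter and 1991 of 10604 with a minimum of 5 TPM. Of the same 13341 genes, 1057 were called with no trend, 4040 with library weights and 616 without siHk2 library 2 and siControl library 5 together. With 1 library left out, 506 to 2129 were called. Of the siHk2 libraries, leaving out 1 gave 866, 2 gave 720 and 3 gave 506, and leaving out siControl library 4 gave 662. Fewer samples in the fit lower its power; the cause of the other differences was not tested. Other pseudocounts, a minimum of 5 TPM, centring on the library median and rescaling without mitochondrially encoded genes left the count of members at 4, and Mgst1 was called under each setting run.

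Some genes that were not called changed the sign of their log2 fold change, at limma adjusted p above 0.5. With library weights Gstp1 was at 0.0241 and Gsta1 at 0.0232. With siHk2 library 2 and siControl library 5 both left out, Gstp1 was at 0.0057 and Sqstm1 at 0.0173. After rescaling without mitochondrially encoded genes, Sqstm1 was at 0.00102. When 1 library was left out, the log2 fold change ranged between -0.00243 and 0.125 for Gstm1, -0.0710 and 0.0728 for Gstp1, -0.589 and 0.367 for Gsta1, -0.0332 and 0.282 for Gsta2, -0.124 and 0.0399 for Gstz1, and -0.0510 and 0.0295 for Sqstm1.

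No paired analysis was possible because, although the sample titles number both groups 1 to 3, the table's siControl columns are numbered 4 to 6 and cannot be matched to those titles. The minimum of 5 TPM left no value for Gsta1 and Gstt2.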
